A study of Mus musculus with 3 samples.

Results

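Regions called with an Arid1a antibody and regions called with an HDAC6 antibody were compared in pancreatic islets of control mice. The method, chromatin immunoprecipitation with sequencing (ChIP-seq), yielded deposited peak lists, that is, regions where sequenced fragments piled up above a library made without immunoprecipitation (no-IP). The members are all called peaks on chromosomes 1 to 19 and X of the 2 control lists, 241 for Arid1a and 223 for HDAC6, together 464 of the 870 peaks of the series. An Arid1a peak and an HDAC6 peak that overlapped by at least 1 bp formed a shared pair. The remaining peaks are called Arid1a-only or HDAC6-only. The comparison describes which regions of islet chromatin were called with both antibodies and which with only 1 of them.

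Both libraries came from islets that were collected and pooled, fixed with formaldehyde and sonicated. The mice carry the genotype label con, and the series describes them as the controls of mice lacking Arid1a in the pancreas. Their age, sex, strain and alleles, and the number of animals in a pool, are not given in the sources used here. One library was made with the Abnova antibody MAB15809 against Arid1a. The other was made with the Cell Signaling antibody 7612, whose target is spelled HADC6 in the labels and HDAC6 in the series title. Each antibody has 1 library, so no value carries a replicate error, no p-value compares the antibodies, and every interval given below covers counting error only. A peak list measures no expression, so the islet identity of the cells could not be checked against marker genes.

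Arid1a is the DNA-binding subunit of the BAF form of SWI/SNF, the chromatin remodelling complex that moves nucleosomes at promoters and enhancers. HDAC6 is a deacetylase found mostly in the cytoplasm, where it acts on tubulin, cortactin and the chaperone Hsp90 and helps to clear ubiquitinated protein through autophagy. In the pancreas, endocrine cells arise from progenitors that switch on the transcription factor Neurog3, and mature beta cells depend on factors such as Pdx1.

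The Arid1a list covered 136 kb and the HDAC6 list 107 kb. Median pileup, the number of fragments over the summit, was 19 in both lists, and the lowest pileup called was 9 in both. The step that 1 no-IP fragment adds to the recovered background was estimated. It is the spacing at which the largest number of low backgrounds were whole multiples. Within a tolerance of 0.01, backgrounds of 102 of 241 Arid1a and 106 of 223 HDAC6 peaks were whole multiples. The estimated step was 0.525 fragments in the Arid1a list and 0.528 in the HDAC6 list, a ratio of 1.01. The ratio of the lowest backgrounds of the lists was 0.914. Both bear on relative depth only if the lists were called against the same no-IP library, which the sources used here do not state. Read totals are not in the files. Signal outside called peaks is not in the files, so a region missing from a list has no measured level.

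Sequences are shown first for some promoters, although few peaks of any class overlapped one. They are the promoter beside the peak of highest fold in both lists, the protein-coding promoter that both lists covered and the named promoters that only 1 list covered. The sequences are RefSeq windows of assembly GRCm38.p6, which has the coordinates of mm10. Each runs from 250 bases before the first transcribed base of a transcript to 50 bases from it on, printed 5′ to 3′ on the gene's strand. In the Neurog3 window, on the plus strand at chr10:62132840-62133139, capitals mark the match to CANNTG (the E-box, bound by factors of the Neurog3 class) and the reverse-strand match to CCAAT. In all other windows, capitals mark the bases that lie inside a called peak.
Neurog3: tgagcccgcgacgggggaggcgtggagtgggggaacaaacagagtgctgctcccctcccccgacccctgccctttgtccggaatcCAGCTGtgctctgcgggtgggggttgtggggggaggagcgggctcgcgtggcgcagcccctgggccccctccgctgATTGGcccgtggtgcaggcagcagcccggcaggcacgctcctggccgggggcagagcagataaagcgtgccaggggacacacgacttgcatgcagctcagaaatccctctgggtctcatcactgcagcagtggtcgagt
Gm40369: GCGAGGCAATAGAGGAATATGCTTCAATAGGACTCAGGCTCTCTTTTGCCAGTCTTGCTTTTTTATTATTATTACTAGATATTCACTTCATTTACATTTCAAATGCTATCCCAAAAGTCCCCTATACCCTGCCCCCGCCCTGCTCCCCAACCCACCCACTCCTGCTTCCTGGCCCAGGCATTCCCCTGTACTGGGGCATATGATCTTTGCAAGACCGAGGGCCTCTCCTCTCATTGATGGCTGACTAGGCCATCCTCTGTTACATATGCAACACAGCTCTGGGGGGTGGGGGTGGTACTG
Prmt3: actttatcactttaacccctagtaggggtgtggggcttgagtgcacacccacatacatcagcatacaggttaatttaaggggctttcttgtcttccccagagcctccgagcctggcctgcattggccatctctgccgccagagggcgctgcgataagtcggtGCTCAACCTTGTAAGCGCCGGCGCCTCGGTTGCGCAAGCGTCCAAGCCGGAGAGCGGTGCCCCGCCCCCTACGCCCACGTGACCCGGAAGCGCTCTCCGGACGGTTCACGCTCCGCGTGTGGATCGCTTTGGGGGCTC
Slc39a11: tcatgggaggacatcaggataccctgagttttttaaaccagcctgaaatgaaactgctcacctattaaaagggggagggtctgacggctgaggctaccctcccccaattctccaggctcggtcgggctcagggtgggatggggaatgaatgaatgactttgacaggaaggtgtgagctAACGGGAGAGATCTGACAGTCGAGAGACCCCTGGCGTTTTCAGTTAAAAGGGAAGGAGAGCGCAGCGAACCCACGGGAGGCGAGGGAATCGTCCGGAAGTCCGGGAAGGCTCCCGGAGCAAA
Ifrd1: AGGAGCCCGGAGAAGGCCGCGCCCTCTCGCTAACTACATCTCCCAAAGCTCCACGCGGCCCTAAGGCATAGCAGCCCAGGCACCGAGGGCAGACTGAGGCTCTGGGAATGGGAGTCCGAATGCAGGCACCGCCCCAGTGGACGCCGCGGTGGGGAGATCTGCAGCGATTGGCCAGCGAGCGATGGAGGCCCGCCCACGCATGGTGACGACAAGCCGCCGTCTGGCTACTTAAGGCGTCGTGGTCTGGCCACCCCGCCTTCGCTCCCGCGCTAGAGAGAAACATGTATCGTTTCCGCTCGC
Racgap1: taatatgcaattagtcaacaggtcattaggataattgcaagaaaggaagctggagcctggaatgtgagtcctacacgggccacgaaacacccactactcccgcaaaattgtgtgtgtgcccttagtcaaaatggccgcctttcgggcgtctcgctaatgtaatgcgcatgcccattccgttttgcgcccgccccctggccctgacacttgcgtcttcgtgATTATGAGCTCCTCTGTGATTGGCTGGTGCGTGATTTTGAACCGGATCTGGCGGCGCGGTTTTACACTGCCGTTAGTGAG
Tmem267: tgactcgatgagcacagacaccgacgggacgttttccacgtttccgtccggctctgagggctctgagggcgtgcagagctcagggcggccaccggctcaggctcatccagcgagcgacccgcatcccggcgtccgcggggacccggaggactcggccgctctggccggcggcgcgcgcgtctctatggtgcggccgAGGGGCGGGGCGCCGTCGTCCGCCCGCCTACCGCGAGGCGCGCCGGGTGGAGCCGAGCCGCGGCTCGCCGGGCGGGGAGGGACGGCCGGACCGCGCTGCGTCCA

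The Neurog3 peaks of both antibodies ended 5 bp short of the printed window, so none of its 300 bases lay inside a peak. The window had 68.3% G and C bases, 19 CpG sites, 1 E-box match at base -165 and 1 CCAAT match at base -89, counted from the first transcribed base. CANNTG occurred in 69.0% and CCAAT in 38.5% of the 21045 windows of protein-coding genes, on either strand, so neither match sets this promoter apart. A match describes letters only and is not a measured binding site.

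Among windows of protein-coding genes, peaks overlapped 2 in the shared class, 5 in the Arid1a-only class and 3 in the HDAC6-only class. A window was overlapped by 2.5% of shared Arid1a, 1.25% of shared HDAC6, 3.11% of Arid1a-only and 2.10% of HDAC6-only peaks. Both antibodies covered the window of the predicted gene Gm40369 (plus strand, chr6:47653742-47654041), with 34 fragments for HDAC6 and 40 for Arid1a. The no-IP background there was 11.1 fragments in both lists, so the folds were low, 3.38 for Arid1a and 2.90 for HDAC6. The other shared case, Gm10406 on chromosome 14, had 9 bases inside the Arid1a peak and 0 inside the HDAC6 peak.

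Arid1a-only peaks reached the start of Prmt3, a protein arginine methyltransferase (plus strand, chr7:49778108-49778407), with a pileup of 13 and a fold of 4.52. They also reached Slc39a11, a zinc transporter gene (minus strand, chr11:113650043-113650342), with a pileup of 12 and a fold of 4.75, by a peak that also touched the neighbouring Golgi gene Cog1. The other 3 Arid1a-only windows belonged to the predicted genes Gm3115, Gm9758 and a second transcript start of Gm40369. G and C bases made up a median of 49.7% of the 5 windows (39.7% to 61.7%), and GGGCGG, the GC box, was found in 1 of them.

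HDAC6-only peaks covered the whole window of Ifrd1, a transcriptional coregulator (minus strand, chr12:40223140-40223439), with a pileup of 32 and a fold of 7.82. They covered 104 bases at Tmem267, a gene for a transmembrane protein (plus strand, chr13:119488223-119488522), with a pileup of 47 and a fold of 5.08. At Racgap1, whose product acts in cell division (minus strand, chr15:99651607-99651906), 80 bases lay inside a peak with a pileup of 11 and a fold of 4.81. The Ifrd1 and Tmem267 peaks also covered starts of the noncoding genes Gm7008 and 3110070M22Rik. All 3 windows had a GC box, as did both windows of the shared class and 46.7% of all protein-coding windows. They held 19 to 50 CpG sites against a median of 13. TATAAA, found in 12.7% of protein-coding windows, was in none of the 10 overlapped windows of any class. With 2 to 5 windows in a class these are descriptions, and the RefSeq window table used here does not cover every gene.

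Of the regions called, 80 formed one-to-one pairs. They made up 33.2% of the Arid1a peaks (exact 95% interval 27.3% to 39.5%) and 35.9% of the HDAC6 peaks (29.6% to 42.5%), leaving 161 Arid1a-only and 143 HDAC6-only peaks. The smallest overlap that counted as shared was 92 bp, near Mup-ps12 on chromosome 4. The nearest miss was a gap of 115 bp near Aass on chromosome 6. There an Arid1a peak of pileup 19 and an HDAC6 peak of pileup 16 lay side by side.

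Shared peaks had higher pileups than the other peaks of the same list. In the Arid1a list the median pileup was 27.5 fragments for shared peaks and 16 for Arid1a-only peaks, and in the HDAC6 list it was 27.5 for shared peaks and 16 for HDAC6-only peaks. A pileup of at least 20 was reached by 62 of 80 shared and 48 of 161 Arid1a-only peaks in the Arid1a list. The same limit was reached by 60 of 80 shared and 48 of 143 HDAC6-only peaks in the HDAC6 list. The ranges of the classes overlapped throughout: Arid1a-only pileups ran up to 127 and shared Arid1a pileups down to 12.

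**Figure D1:**
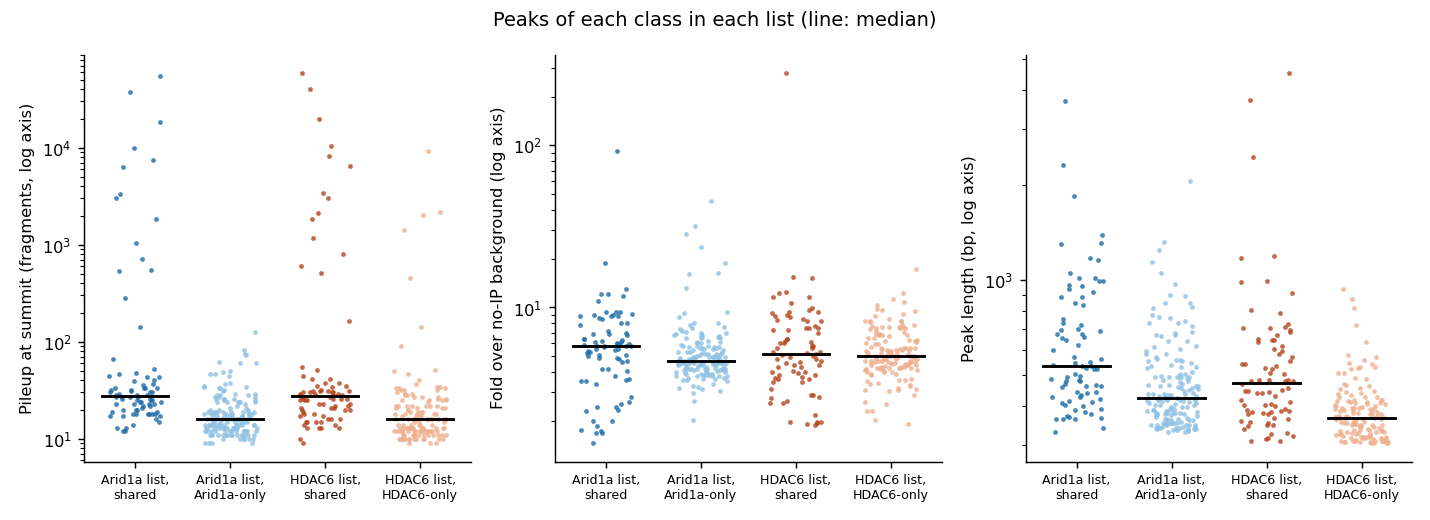
Pileup at the summit, fold over the no-IP background and peak length, each on a log axis, for every peak of each class in each list. Points are single peaks and the line is the class median. Shared peaks had a median pileup of 27.5 in both lists against 16 in both single-antibody classes, with overlapping ranges.

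The share of peaks found by the other antibody climbed with the pileup. Among Arid1a peaks with a background under 10 fragments, 7.04% (5 of 71) were shared below a pileup of 15 and 21.7% (13 of 60) from 15 to 19. From 20 to 29 the share was 49.1% (26 of 53), and from 30 upwards it was 55.3% (21 of 38). HDAC6 peaks gave 10.96% (8 of 73), 28.6% (12 of 42), 49.1% (26 of 53) and 59.4% (19 of 32) over the same steps. The exact 95% intervals of the lowest and highest steps did not meet in either list, while those of the 2 highest steps overlapped. These intervals take peaks as independent, although 20 shared pairs lie in 1 stretch of chromosome 6 described below. A peak near the lowest called pileup of 9 also leaves the shared class when the other library falls below the limit of calling. The part of this limit in the rise was not tested.

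**Figure D2:**
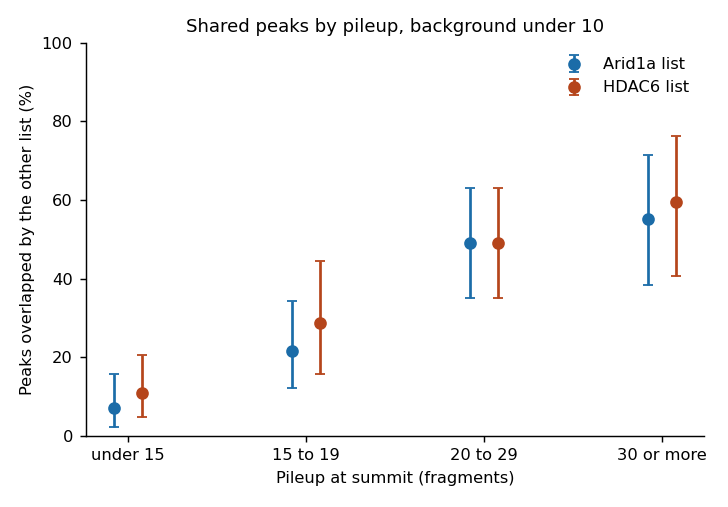
Share of peaks of each list overlapped by the other list, in percent, by pileup at the summit, for peaks with a no-IP background under 10 fragments. Points are shares and bars are exact 95% binomial intervals. The share runs from 7.04% to 55.3% in the Arid1a list and from 10.96% to 59.4% in the HDAC6 list.

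Fold separated the classes less than pileup did. The median fold was 5.78 for shared and 4.69 for Arid1a-only peaks in the Arid1a list, and 5.20 for shared and 5.03 for HDAC6-only peaks in the HDAC6 list. Among peaks with a background under 10 fragments these medians were 6.07 against 4.69 and 6.05 against 5.08. Pileup medians of the same peaks were 25 against 16 and 25 against 15. The no-IP background under the peaks was itself higher at shared sites, with medians of 3.15 against 2.10 fragments in the Arid1a list and 3.03 against 1.93 in the HDAC6 list. Among peaks with a background under 10 they were 2.62 against 2.10 and 2.64 against 1.93. At the lowest background value of the list, 1.64 fragments for Arid1a and 1.496 for HDAC6, lay 6 of 80 shared and 43 of 161 Arid1a-only peaks. In the HDAC6 list these were 6 of 80 shared and 24 of 143 HDAC6-only peaks. The part of this background in the sharing was not tested.

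Shared peaks were also longer, with a median of 535.5 bp against 424 bp for Arid1a-only peaks, and 473 bp against 366 bp for HDAC6-only peaks. A longer peak meets the overlap rule more easily, so length is not independent of the class. The median summit position lay near the middle of the peak in every class. The median position was 47.9% of the way along shared Arid1a peaks, 51.3% along Arid1a-only peaks, 50.6% along shared HDAC6 peaks and 46.9% along HDAC6-only peaks. The interval of each median included 50%, but a median does not describe the spread. The quartiles were 31.2% and 64.0% for shared and 34.8% and 67.2% for Arid1a-only peaks in the Arid1a list. They were 35.1% and 64.0% for shared and 28.4% and 65.7% for HDAC6-only peaks in the HDAC6 list. Within 10% of an end lay 0 of 80 shared and 7 of 161 Arid1a-only summits of the Arid1a list. In the HDAC6 list these were 3 of 80 shared and 13 of 143 HDAC6-only summits.

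Within the 80 pairs the antibodies gave like values. The pairs hold only overlapping peaks called in both lists, so the pairing rule itself favours near summits and like pileups. The summits of a pair lay a median of 31.5 bp apart (0 to 799 bp), and 53 pairs had them within 100 bp. The ratio of the HDAC6 pileup to the Arid1a pileup had a median of 1.00, with HDAC6 higher in 39 pairs, lower in 38 and equal in 3. All but 2 pairs had ratios between 0.5 and 2. Across pairs the pileups of the antibodies had a Spearman rho of 0.841, the folds 0.851 and the recovered no-IP backgrounds 0.939 (n = 80 pairs). With the 65 pairs of background under 10 these were 0.709, 0.727 and 0.886. These points are genome positions of 1 library each, and both lists were called against a no-IP library. Where the background came to a whole number of no-IP fragments in both lists, within a tolerance of 0.01, the number was the same in 15 of 32 pairs.

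**Figure D3:**
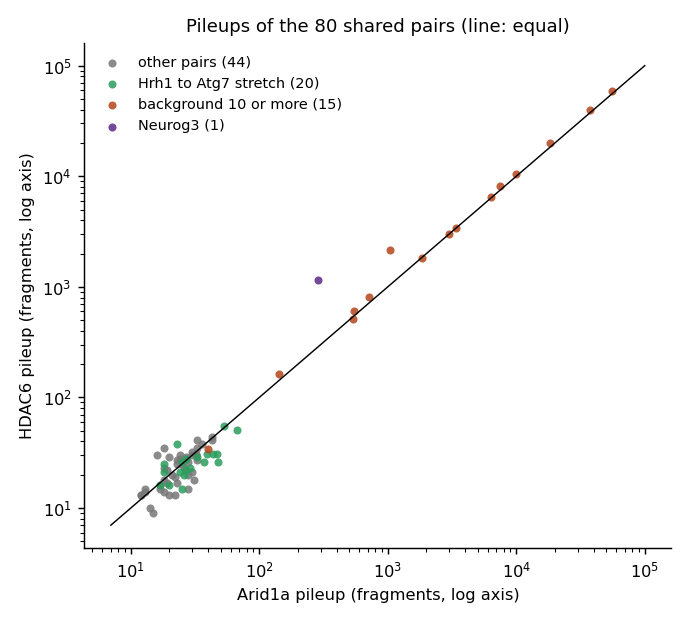
Pileup of each of the 80 shared pairs in the Arid1a list (horizontal, fragments, log axis) and in the HDAC6 list (vertical, fragments, log axis). The line marks equal pileups. Neurog3 lies farthest above it, with 285 Arid1a and 1164 HDAC6 fragments.

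The pair of highest fold lay upstream of Neurog3, the switch gene of endocrine progenitors. The Arid1a peak, chr10:62131842-62132834, had a pileup of 285 and a fold of 92.7. The HDAC6 peak, chr10:62131839-62132834, had a pileup of 1164 and a fold of 279.6. The pileup ratio was 4.08 (exact 95% interval 3.58 to 4.67, counting error only), and the next highest ratio of any pair was 2.05. Of the 80 pairs it alone had both edges within 3 bp of each other. Its summits nevertheless lay 527 bp apart. The Arid1a summit was 373 bp and the HDAC6 summit 900 bp before the first transcribed base, and both peaks ended 256 bp before it, upstream of the window printed above. Without this pair the highest fold of a shared peak was 18.8 for Arid1a and 15.4 for HDAC6.

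After Neurog3 the highest shared folds were found on chromosome 6 between Hrh1, the histamine H1 receptor gene, and Atg7, the E1-like enzyme of autophagy. In this stretch of 159.8 kb the lists held 20 shared pairs, 10 Arid1a-only and 4 HDAC6-only peaks, all outside both gene spans. The highest pair, with the Arid1a peak at chr6:114560825-114561470, had 67 Arid1a and 51 HDAC6 fragments and folds of 18.8 and 15.2. The next, with the Arid1a peak at chr6:114565230-114565905, had 53 and 55 fragments and folds of 13.0 and 15.4. A further pair, at chr6:114551995-114552437, had 47 and 31 fragments.

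In 14 of the 20 pairs of the stretch the HDAC6 pileup was below the Arid1a pileup, and in 6 it was above. The median ratio was 0.807 (0.542 to 1.65), and the pileups summed to 647 for Arid1a and 551 for HDAC6. The pair at chr6:114511065-114511949 had 48 Arid1a and 26 HDAC6 fragments, a ratio of 0.542 (0.323 to 0.891). It was the only one of the 80 pairs whose interval lay wholly below 1, and 9 pairs had an interval wholly above 1. Among the 65 pairs with a background under 10 fragments, 2 had an interval wholly above 1. The intervals use raw pileups of libraries whose relative depth is not known. Peaks of the stretch that were called in 1 list were nearly as high as the shared ones. Arid1a-only peaks had a median of 24 fragments against 27 for shared Arid1a peaks, and HDAC6-only peaks had a median of 24 against 26 for shared HDAC6 peaks. The Arid1a peak was the longer one in 18 of the 20 pairs. Without the stretch 28.4% of Arid1a peaks and 30.2% of HDAC6 peaks were shared.

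**Figure D4:**
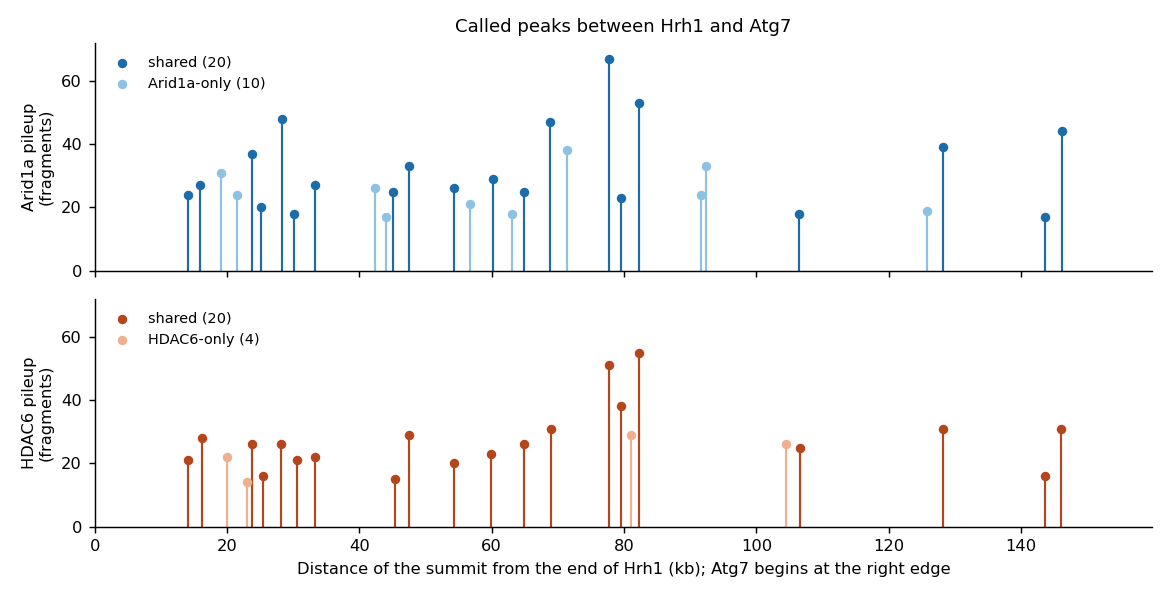
Pileup (fragments) of each called peak between Hrh1 and Atg7 in the Arid1a list (upper panel) and the HDAC6 list (lower panel), by distance of the summit from the end of Hrh1 in kb. Dark stems are the 20 shared peaks and light stems the 10 Arid1a-only and 4 HDAC6-only peaks. The highest stems, 67 and 53 fragments for Arid1a and 51 and 55 for HDAC6, stand at the same places in both panels.

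Away from Neurog3 and chromosome 6, the shared sites of highest Arid1a fold lay outside genes, apart from one inside Gm51598 given below. A pair 1322 kb from Iftap on chromosome 2 (Arid1a peak chr2:100238103-100238505) had 43 Arid1a and 44 HDAC6 fragments. A pair 21.5 kb from Crp, the gene of C-reactive protein (Arid1a peak chr1:172721513-172722034), had 43 and 41. A pair 50.0 kb from Pls3, an actin-bundling plastin on the X chromosome (Arid1a peak chrX:75734596-75735607), had 30 and 30. At these 3 sites the antibodies differed by at most 2 fragments. In the HDAC6 list the highest shared folds also took in pairs near Gsdmc, a gasdermin (20 Arid1a and 29 HDAC6 fragments), Gm6729 (27 and 29) and Pcdh19, a protocadherin on the X chromosome (16 and 30).

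The pairs that differed most, apart from Neurog3, differed by small numbers of fragments or stood on a high background. Near Trps1, a GATA-type repressor on chromosome 15, Arid1a had 18 and HDAC6 35 fragments, a ratio of 1.94 (1.07 to 3.65). Near Col19a1 on chromosome 1 the pileups were 1046 and 2142, a ratio of 2.05, over an Arid1a background of 720.1 fragments. In the other direction, the pair inside Gm51598 on chromosome 8 had 28 and 15 fragments, a ratio of 0.536 (0.266 to 1.04). The pair near Ipmk, an inositol phosphate kinase gene on chromosome 10, had 31 and 18, a ratio of 0.581. The summits lay farthest apart near 4932411N23Rik on the X chromosome (799 bp), inside Gm32966 on chromosome 14 (740 bp) and near Mup-ps12 (666 bp).

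A group of 15 shared pairs had a background of at least 10 fragments in both lists, and 9 of them were nearest to Alkbh8 at the start of chromosome 9. Their pileups ran from 40 to 55483 for Arid1a and from 34 to 58802 for HDAC6, with folds of at most 3.38 and 3.15. Their summits almost coincided, with a median distance of 2 bp, and 14 of the 15 pairs had them within 20 bp. The HDAC6 pileup was the higher one in 12 of the 15 pairs, with a median ratio of 1.06. High-background peaks made up 4 of 161 Arid1a-only and 8 of 143 HDAC6-only peaks. In the 45 pairs outside both this group and the Hrh1 stretch, Neurog3 included, HDAC6 was higher in 21, lower in 21 and equal in 3.

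The Arid1a-only peak of highest fold lay in Mocos, the molybdenum cofactor sulfurase gene (chr18:24677131-24677470), with a pileup of 127 and a fold of 45.3. The nearest HDAC6 peak was over 1000 kb away, and the fold exceeded that of every shared Arid1a peak except Neurog3.

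Of the Arid1a-only top 10, 5 peaks outside genes were nearest to the kinesin gene Kif6 (62 fragments, fold 23.5), the ceruloplasmin gene Cp (50, fold 18.9), the potassium channel gene Kcnj5 (44, fold 16.2), 1700010I14Rik (49, fold 16.1) and the forkhead gene Foxd1 (34, fold 13.3). These peaks were 10.8 kb, in the case of Kcnj5, to 138.9 kb, in the case of Foxd1, from the gene span. The top 10 also held a peak of the Hrh1 stretch with a fold of 9.33 and a peak 5.68 kb from Gm10340 with a fold of 9.30. Of the 161 Arid1a-only peaks, 8 had a fold of at least 10.

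Among HDAC6-only peaks, the one of highest fold, 140.3 kb from Gli2, a transcription factor of Hedgehog signalling (chr1:119194745-119195097), had a pileup of 50 and a fold of 17.4. A peak 1217 kb from the glutamate receptor gene Grik2 had 33 fragments and a fold of 12.3. Inside Abcc8, which encodes the regulatory subunit of the ATP-closed potassium channel of beta cells, the peak at chr7:46138102-46138427 had 34 fragments and a fold of 11.2. A peak 172.3 kb from the cytokine gene Il15 had 27 fragments and a fold of 10.8. Inside the receptor phosphatase gene Ptprd, the peak at chr4:77593249-77593687 had 32 fragments and a fold of 10.4.

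The other 5 of the HDAC6-only top 10 had folds of 8.90 to 9.82. They were nearest to Jrkl (33 fragments), the homeobox gene Dlx6 (29), the lysosomal membrane gene Sidt2 (27, inside the gene), Csmd3 (25) and the mitochondrial co-chaperone gene Dnajc19 (22). The nearest Arid1a peak was over 1000 kb away for all 10 of these HDAC6-only peaks. More of the HDAC6-only than of the Arid1a-only peaks were that far from the other list, 101 of 143 (70.6%) against 81 of 161 (50.3%). Within 10 kb of the other list lay 28 HDAC6-only peaks (19.6%) and 44 Arid1a-only peaks (27.3%), of which 4 and 10 were in the Hrh1 stretch.

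Positions against genes used the spans of 21631 protein-coding genes, without exons or introns. Inside a span lay 12 of 80 shared peaks in either list (15%), 37 of 161 Arid1a-only peaks (23.0%) and 40 of 143 HDAC6-only peaks (27.97%). Gene spans make up 39.1% of the length of these chromosomes, more than the share of peaks inside them in every class. Within 1 kb of a span, or inside it, were 16.3% of shared peaks (8.95% to 26.2%), 23.6% of Arid1a-only peaks (17.3% to 30.9%) and 31.5% of HDAC6-only peaks (23.97% to 39.8%). Over 50 kb from any span were 46.3% of shared, 26.7% of Arid1a-only and 40.6% of HDAC6-only peaks. The median distance was 40.5 kb for shared Arid1a peaks, 18.8 kb for Arid1a-only peaks and 21.1 kb for HDAC6-only peaks. The Hrh1 stretch, outside genes, held 20 of the 80 shared pairs. Without it 21.7% of shared (12.1% to 34.2%), 25.2% of Arid1a-only and 32.4% of HDAC6-only peaks were within 1 kb. Over 50 kb away were then 48.3%, 25.2% and 40.3% in that order. With a background under 10 fragments the shares over 50 kb were 38.5%, 26.8% and 39.3%.

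**Figure D5:**
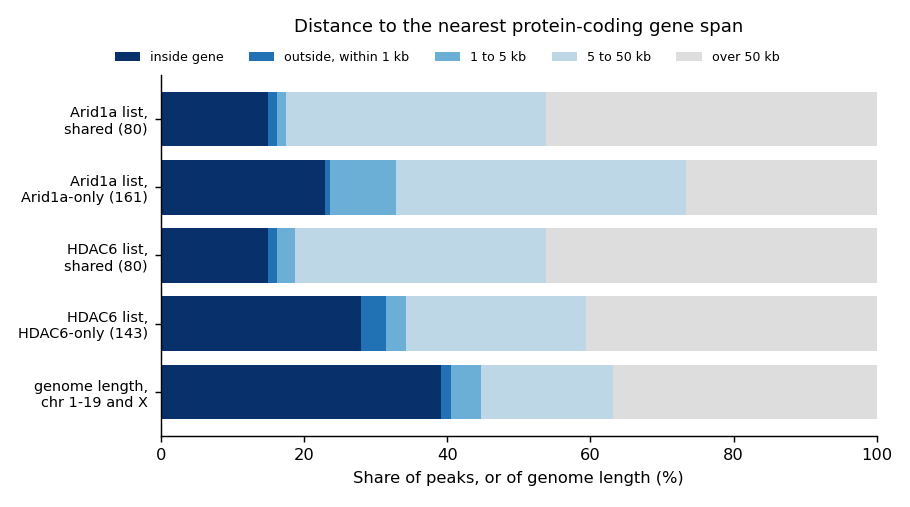
Share of peaks of each class, in percent, by distance to the nearest protein-coding gene span, with the shares of genome length in the lowest bar. Inside a gene lay 15% of shared, 23.0% of Arid1a-only and 27.97% of HDAC6-only peaks, and 39.1% of the genome length.

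Shared peaks inside genes were found in Ctnnd2, a delta-catenin gene (26 Arid1a and 23 HDAC6 fragments), Fhit (28 and 26), the kinase anchor gene Akap9 (18 and 23), the RNA helicase gene Mov10 (28 and 20) and 2610008E11Rik (18 and 18). The other 7 were in predicted genes: Gm51598, Gm10340, Gm32966 with 2 pairs, Gm10406, Gm21149 and Gm40369. Of the peaks inside a gene, 22 of 37 Arid1a-only and 36 of 40 HDAC6-only peaks had a nearest gene with a name other than a predicted Gm number. HDAC6-only peaks of this kind included Abca7, a lipid transporter gene (22 fragments, fold 8.30), Xrcc4, a DNA repair gene (51, fold 8.28), and Dlg2, a synaptic scaffold gene (22, fold 7.39). Predicted Gm genes were nearest to 22.5% of shared Arid1a, 24.8% of Arid1a-only and 10.5% of HDAC6-only peaks, and make up 5.05% of protein-coding genes.

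Arid1a-only peaks were most numerous on the X chromosome and chromosome 14, where the other classes also had peaks. The X chromosome, 6.49% of the length, held 40 of 161 Arid1a-only (24.8%), 23 of 143 HDAC6-only (16.1%) and 5 of 80 shared peaks (6.25%). Pileups there were low, with a median of 14 for Arid1a-only and 12 for HDAC6-only peaks against 30 for the shared ones. Of the Arid1a-only peaks on X, 18 were nearest to genes of the Btbd35f and Spin2 families, as were 3 of the HDAC6-only peaks, a grouping chosen after the values were seen. Chromosome 14 held 27 Arid1a-only peaks (16.8%), 25 of them nearest to predicted Gm genes. It held 10 HDAC6-only peaks (6.99%), 5 of them nearest to such genes. Of the shared pairs, 9 (11.25%) lay there, 7 of them nearest to such genes. The share of this chromosome in the length was not computed. Members of multicopy families share sequence, and how fragments were assigned among copies is not given in the sources used here.

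Only 2 genes held an Arid1a-only and an HDAC6-only peak, both on chromosome 14. Gm32966 held 7 Arid1a-only peaks with 13 to 26 fragments and 1 HDAC6-only peak with 14. Gm3739 held 1 Arid1a-only peak with 11 fragments and 1 HDAC6-only peak with 17, which lay 5997 bp apart.

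Each peak was assigned to its nearest protein-coding gene at any distance. Arid1a peaks were nearest to 147 genes (0.68% of all protein-coding genes) and HDAC6 peaks to 163 (0.754%), with 60 genes in both (0.277% of all protein-coding genes), which is 40.8% of the Arid1a genes and 36.8% of the HDAC6 genes. At 12 of the 60 genes the peaks of the antibodies did not overlap. Of 31 beta cell genes, 2 were nearest to an Arid1a peak and 3 to an HDAC6 peak. By class, 1 was nearest to a shared peak, 1 to an Arid1a-only peak and 2 to an HDAC6-only peak, when the shares over all protein-coding genes were 0.222%, 0.541% and 0.601% in that order. Counts this small on lists chosen with earlier results known are a description.

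Pdx1, a homeobox gene that maintains beta cell function, had 2 Arid1a-only peaks outside the gene and no HDAC6 peak. The farther one, chr5:147266053-147266901, had 15 fragments and a fold of 5.67 and lay 3.20 kb from the gene. The nearer one, chr5:147267768-147268271, had 13 fragments and a fold of 3.86 and lay 1.83 kb from it. Abcc8, described above, and Cpe, the carboxypeptidase that trims proinsulin, had HDAC6-only peaks inside the gene. The Cpe peak, chr8:64622945-64623298, had 12 fragments and a fold of 5.03. The insulin gene Ins1 was the nearest gene of a shared pair 362.7 kb away, with 24 Arid1a and 28 HDAC6 fragments. The Pdx1 and Cpe peaks had pileups of 12 to 15, and below 20 fragments at most 28.6% of the peaks of a list were shared.

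Of 21 genes of endocrine development, 2 were nearest to a peak in each list: Neurog3 and Foxd1 for Arid1a, and Neurog3 and Gli2 for HDAC6. Of 12 genes of other endocrine cells, 0 were nearest to an Arid1a peak, and Pou3f4, an alpha cell factor gene on the X chromosome, was nearest to an HDAC6-only peak 68.2 kb away with 12 fragments. Of 13 exocytosis genes, Syt4, which encodes a synaptotagmin of secretory vesicles, was nearest to an HDAC6-only peak 56.7 kb away with 16 fragments, and 0 to an Arid1a peak. Of 13 acinar genes, the amylase gene Amy2b was nearest to an Arid1a-only peak 1242 kb away with 27 fragments. Over all protein-coding genes, 0.68% were nearest to an Arid1a peak and 0.754% to an HDAC6 peak. The lists were chosen with earlier results of these data known, so these small counts are a description.

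Among 18 genes of the cytoskeleton and of HDAC6 partners, Pls3 was nearest to peaks of both lists. Beside its shared pair, 1 Arid1a-only peak had 12 fragments and 2 HDAC6-only peaks had 12 and 18. Among 12 autophagy genes, Atg7 was nearest to peaks of both lists, all in the stretch described above, 13.5 kb or more from the gene. None of the 8 ductal, 23 SWI/SNF, 15 deacetylase or 15 immune, vascular and stromal genes was the nearest gene of a peak in either list. With shares of 0.68% and 0.754% over all protein-coding genes, lists of this size cannot show an absence of peaks.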

How the data were processed

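The authors deposited 1 peak list per library, called against a library without immunoprecipitation, as the peak names show. The build was mm10, and edgeR 3.4.6, bedtools, Bowtie2 2.2.6, Bowtie and cutadapt were used in roles not stated, per the submitters' processing notes. The peak caller, its settings and the removal of duplicate reads are not given in the sources used here. Pileup is the deposited signal, a whole number of fragments over the summit, per the file headers and values. Fold is the authors' ratio of pileup to local no-IP background, taken here as having 1 added to both terms. The authors also deposited each peak's p-value and q-value, both as −log10. The q-value exceeded 0.05 for 6 Arid1a and 3 HDAC6 peaks, up to 0.0769 and 0.0642. Fold and q served to describe, rank and filter peaks within a list, and folds of a shared pair are given side by side.

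The knockout list was not used. Of 250 Arid1a and 236 HDAC6 peaks, 9 and 13 on the Y chromosome, mitochondrial DNA and contigs were left out. Background was recovered as (pileup + 1) / fold − 1. A Poisson p from it came within 1% of the deposited −log10 p for 96.3% and 94.6% of peaks. Overlap, distances, exact (Clopper-Pearson) 95% binomial intervals and exact conditional intervals of pileup ratios were computed in Python 3.11.15 with scipy 1.17.1, and the overlap step was tested on simulated data. Intervals reflect counting error alone and take neighbouring peaks as independent. Genes were RefSeq spans of GRCm38.p6, and all 181 genes of the 11 gene lists were found. Named peaks were the 10 of highest fold per class and list, peaks whose nearest gene is in a gene list, genes holding separate peaks of both antibodies, and the 3 pairs at each extreme of pileup ratio and the 3 of widest summit distance. Of the Arid1a-only peaks that this rule names, some are not reported here. Promoter windows, the shared peaks inside genes and other examples were added after their values were seen. The classes, lists and rules were chosen with earlier results of these data known. Alternatives changed the overlap rule, the caller's threshold, the merging of near peaks, the peaks kept and the scaling. With 1 library per antibody no test between antibodies was made.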

Additional observations from a re-analysis of the deposited data

Results flagged for a closer look

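Peaks outside chromosomes 1 to 19 and X took no part in the comparison. The Arid1a list held 9 of them, and all 9 overlapped an HDAC6 peak. The HDAC6 list held 13, of which 9 overlapped an Arid1a peak. They lay on the Y chromosome (1 Arid1a and 4 HDAC6 peaks), on mitochondrial DNA (1 and 2) on an unplaced contig (6 and 6) and on another contig (1 and 1). Off the Y chromosome the pileups were 741 to 5396 for Arid1a and 762 to 5653 for HDAC6, with folds of at most 2.84 and 3.09. Folds this low at such pileups reflect a high no-IP background. On the Y chromosome the Arid1a peak had 42 fragments and a fold of 9.61. The HDAC6 peaks there had 17 to 44 fragments and folds of 5.05 to 10.7. All these peaks are set apart because the comparison left them out.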

How the results depend on the processing

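Of 124 values recomputed under another setting, 112 stayed within their counting error or within 1.5 times the count, and 12 moved beyond it. Only the size of a change was scored, so a reversal of direction was not looked for. Requiring summits within 100 bp of each other left 53 shared pairs, 22.0% of Arid1a and 23.8% of HDAC6 peaks, with median shared pileups of 33 and 31. A fold of at least 5 in both lists left 41 shared pairs, of 113 Arid1a and 118 HDAC6 peaks. Merging peaks within 100 kb left 44 shared regions, of 134 and 155, which is 28.4% of the HDAC6 regions. Dividing the pileup ratio of pairs by the ratio of the smallest backgrounds gave a median of 1.09. Dividing by the ratio of no-IP steps, an alternative chosen after seeing the data, left it within its counting error. No paired analysis was possible because each antibody had 1 library, and for the same reason no replicate could be left out. Depth limits the low peaks: the smallest pileup called was 9 fragments, and below that a region has no value in either list.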
